A study of Mus musculus with 8 samples.

Results

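The genes described here are those of the mouse major histocompatibility complex (MHC, called H2 in the mouse) and of antigen presentation, in distal colon with and without the human protein Siglec-XII. They were found by name in the deposited expression table. Every gene whose symbol begins with H2- was taken, together with B2m, Tap1, Tap2, Tapbp, Tapbpl, Erap1, Nlrc5, Ciita, Cd74, Psmb8, Psmb9 and Psmb10. This gave 57 genes of the 52143 rows of the table, and no symbol was repeated among them. They comprised 3 class I genes (H2-K1, H2-D1 and the shared light chain B2m), 30 class Ib genes, 14 class II genes (Cd74 and Ciita included), and 9 genes of peptide loading, of the immunoproteasome and of their control. The remaining gene, H2-Ke6, lies within the complex and carries its name but encodes a steroid dehydrogenase, so it was kept apart.

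The question put to the samples was how expression of SIGLEC12 in the mouse intestinal epithelium affects gene expression at baseline, before any carcinogen. The SiglecXII group carried 1 floxed SIGLEC12 allele, driven by the CAG promoter from the ROSA26 locus behind a removable EGFP stop cassette, and a tamoxifen-dependent Cre under the Villin1 promoter (SIGLEC12-Villin1-Cre-ERT). Control animals were littermates with the Cre alone (Villin1-Cre-ERT), so Cre and tamoxifen were common to both groups. Mice were 8 weeks old at the start, only females were used in the study, and they received tamoxifen at 10 mg/ml on 5 days and were killed 7 days after the last dose. The labels list 4 Control and 4 SiglecXII samples, whereas the design text speaks of 3 mice per condition and the methods of 3 technical replicate libraries per sample. The p-values below therefore measure the spread between these samples, which may be partly technical. The table has no row for SIGLEC12, EGFP or Cre, which leaves the transgene unmeasured in these values.

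Class I molecules are found on nearly all nucleated cells and present peptides cut from cytosolic proteins to CD8+ T cells. Proteasomes make these peptides, and interferon exchanges 3 of their catalytic subunits for Psmb8, Psmb9 and Psmb10. The transporter Tap1-Tap2 carries the peptides into the endoplasmic reticulum, where tapasin (Tapbp) and its relative Tapbpl help to load them and Erap1 trims them. Class Ib molecules are relatives of class I with narrower tasks, such as H2-T23 (Qa-1), which is read by receptors of natural killer cells. Class II molecules present peptides from endosomes to CD4+ T cells and are made mainly by B cells, dendritic cells and macrophages, although intestinal epithelium can be induced to make them. Cd74, the invariant chain, escorts them, and H2-DM exchanges its remnant for peptide. Nlrc5 is the master activator of class I genes and Ciita that of class II genes.

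Promoters of 4 members are shown because their levels differed most in kind: H2-K1 was the highest and among the steadiest of all members, H2-Q10 is a class Ib relative with 1 very low sample, and H2-Aa and H2-Eb1 are class II chains whose levels were high and low in the same samples. Each sequence is the 250 bases before the RefSeq transcription start on GRCm38.p6, 5′ to 3′ on the gene's strand, and capitals mark matches to the motifs described after them. They lie at chr17:34000334-34000583 (minus strand, H2-K1), chr17:35469839-35470088 (plus strand, H2-Q10), chr17:34287824-34288073 (minus strand, H2-Aa) and chr17:34305617-34305866 (plus strand, H2-Eb1).
H2-K1: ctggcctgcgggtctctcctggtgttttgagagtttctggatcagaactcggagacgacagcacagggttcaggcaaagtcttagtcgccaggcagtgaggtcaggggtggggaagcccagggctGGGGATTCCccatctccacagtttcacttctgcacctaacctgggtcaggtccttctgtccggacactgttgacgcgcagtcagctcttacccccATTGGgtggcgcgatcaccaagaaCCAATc
H2-Q10: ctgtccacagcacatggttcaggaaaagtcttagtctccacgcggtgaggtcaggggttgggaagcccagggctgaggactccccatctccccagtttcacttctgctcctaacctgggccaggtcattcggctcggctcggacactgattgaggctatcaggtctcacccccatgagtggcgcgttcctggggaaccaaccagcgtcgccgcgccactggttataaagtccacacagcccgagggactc
H2-Aa: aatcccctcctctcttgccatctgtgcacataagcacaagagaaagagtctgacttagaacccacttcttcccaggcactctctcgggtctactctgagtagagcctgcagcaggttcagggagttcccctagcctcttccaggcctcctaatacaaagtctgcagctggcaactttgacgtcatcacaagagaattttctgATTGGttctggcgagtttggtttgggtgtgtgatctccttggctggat
H2-Eb1: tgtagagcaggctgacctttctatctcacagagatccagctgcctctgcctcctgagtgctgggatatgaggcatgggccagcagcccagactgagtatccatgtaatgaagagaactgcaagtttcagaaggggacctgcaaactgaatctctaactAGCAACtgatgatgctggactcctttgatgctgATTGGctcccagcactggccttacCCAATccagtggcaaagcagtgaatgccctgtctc

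The 4 motifs were searched as letters on both strands of the RefSeq promoter windows (250 bases before and 50 from the start), which were supplied for 39 of the 57 members, and matches of different motifs did not overlap. The Y box (ATTGG), bound by NF-Y, was present in 33 of the 39 members and in 37.4% of all 32851 windows. It was found in 3 of 3 class I, 18 of 21 class Ib, 8 of 8 class II and 3 of 6 loading and proteasome members with a window. The core of the X box (AGCAAC), part of the element that the Rfx5 complex binds in class II promoters, occurred in 4 of 8 class II members (H2-Eb1, H2-Eb2, H2-Oa and H2-Ob), in 3 of 21 class Ib members (H2-M3, H2-T-ps and H2-T23) and in 0 of 3 class I members. The first match began 77 to 133 bases before the start in the class II members. In the class Ib members it began 40, 21 and 34 bases after the start. Over all members the X box core occurred in 7 of 39 (17.9%), against 14.8% of all windows. An NF-kB site (GGGGATTCC) occurred in H2-K1, H2-D1, H2-Q6 and H2-Q7, against 0.25% of all windows. A pattern of interferon-stimulated elements (GAAANNGAA) occurred in 4 members, B2m, H2-T22, H2-T23 and Erap1, and in 8.56% of all windows. In H2-Eb1 the X box core began 92 bases before the start and the Y boxes 59 and 35 bases before it, and in H2-Aa the Y box began 48 bases before it. The H2-K1 window held the NF-kB letters 125 bases before the start and Y boxes at 30 and 6 bases, and the H2-Q10 window held none of the 4 patterns in these letters. A match is a description of the letters only. Variants of these letters were not searched, so a window without a match, such as that of H2-Aa for the X box core, may still hold the element.

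The deposited values are log2(TPM + 1), where TPM is a gene's share of the transcripts of a library after correction for length, scaled to a sum of 1000000, so TPM levels of different genes can be compared. TPM keeps no read number. The depth behind a value is therefore unknown, and precision rests on the number of samples. Differences were tested with limma over the 13164 genes that reached 1 TPM in 4 or more samples. Over these genes the median log2 difference, SiglecXII minus Control, was -0.152, and 78.1% lay below 0. The median genes of SiglecXII 3 and 4 were shifted by -0.227 and -0.372 log2 units from the mean of the 8 samples, and those of the other samples by -0.02 to 0.18. These 2 libraries stood apart from the others on the first principal component and Control 1 on the second. Without SiglecXII 3 and 4 the median gene lay at 0.00384. Each difference below is on the deposited scale. Centring each sample on its median adds 0.213 to every difference, which turns 11 of the 28 tested members from below to above 0 (B2m, H2-D1, H2-M3, H2-Q4, H2-Q7, H2-DMb1, Erap1, Tapbp, Psmb9, Psmb10 and H2-Ke6).

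The 57 genes, H2-Ke6 included, held between 0.225% and 0.269% of the TPM of a sample, and most of that was class I. Of the 57 genes, 28 passed the filter on low values and were tested, and all 28 had a TPM of at least 1 in every sample. Tested were 3 of 3 class I, 10 of 30 class Ib, 6 of 14 class II and 8 of 9 loading and proteasome genes, and H2-Ke6. The other 29 were not tested. Of these, 25 were under a TPM of 1 in every sample, and 10 of the 25 were listed at 0 in every sample.

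**Figure D1:**
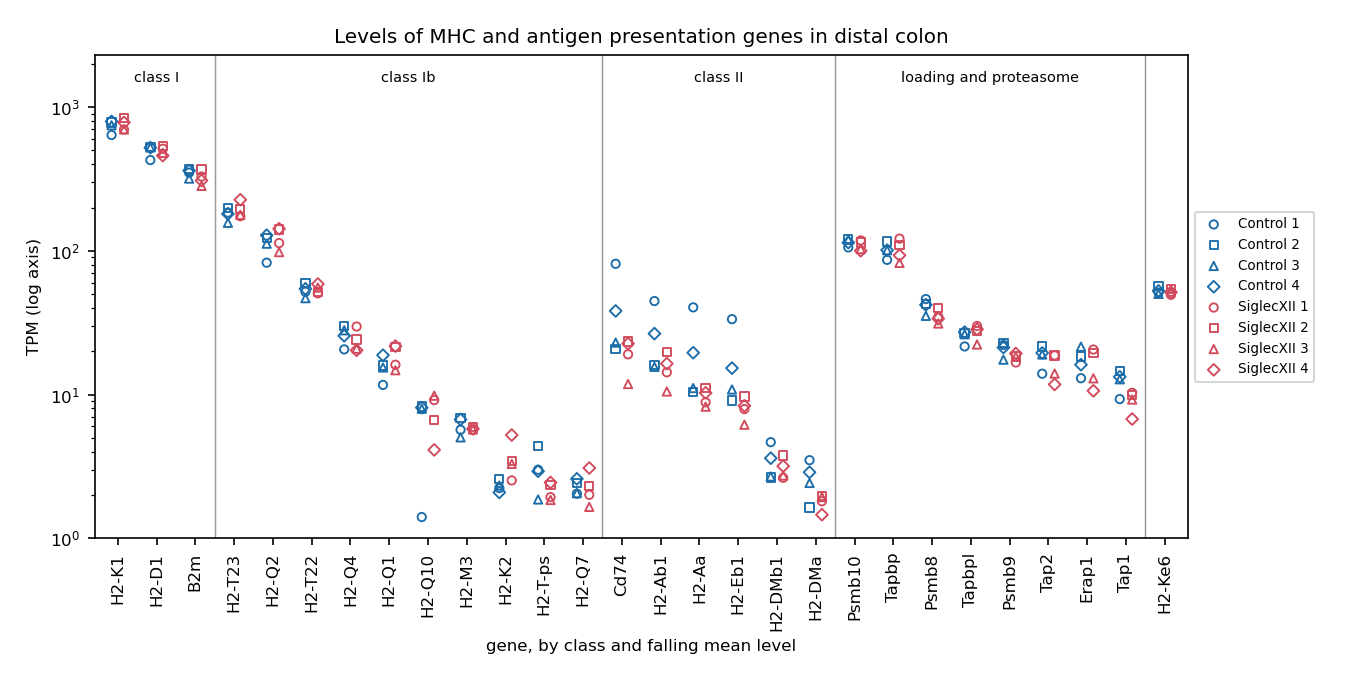
TPM on a log axis for the 28 tested genes in each of the 8 samples, with Control samples in blue, SiglecXII samples in red and 1 marker shape per replicate number, and genes ordered by class and falling mean level. The blue circles of Control 1 stand above all other samples in the 6 class II genes and far below them in H2-Q10 (1.40 TPM).

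By limma 0 members were past an adjusted p of 0.05, the smallest being 0.515, and 5 of all 13164 genes were past it (0.038%). At an unadjusted p of 0.05 or less, 3 of the 28 tested members passed (10.7%), against 8.87% of all genes. H2-K2 was higher in SiglecXII samples, where 1.19% of all genes passed in that direction, and H2-Eb1 and Tap1 were lower, where 7.67% did. The groups overlapped in every one of the 28 members, that is, 0 members separated the groups completely, against 5.11% of all genes. The share of members past the unadjusted limit was thus near that of all genes. Their count of 3 became 6 without Control 2, 7 without Control 3, 1 without SiglecXII 3, and 0 without Control 4 or without SiglecXII 4. Of all genes 6.49%, 9.19%, 3.7%, 5.09% and 4.28% passed in these fits, in that order. The log2 difference was above 0 in 8 members and below 0 in 20, and 18 of the 28 lay above the median gene. The direction of single members turned with the scaling or the samples used, and 13 of the 28 kept their sign under every alternative tried (0 of 3 class I, 5 of 10 class Ib, 5 of 6 class II, 3 of 8 loading and proteasome genes, and not H2-Ke6). The 95% interval lay above a log2 change of -1 in 24 members, which were all tested members except Cd74, H2-Ab1, H2-Aa and H2-Eb1.

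**Figure D2:**
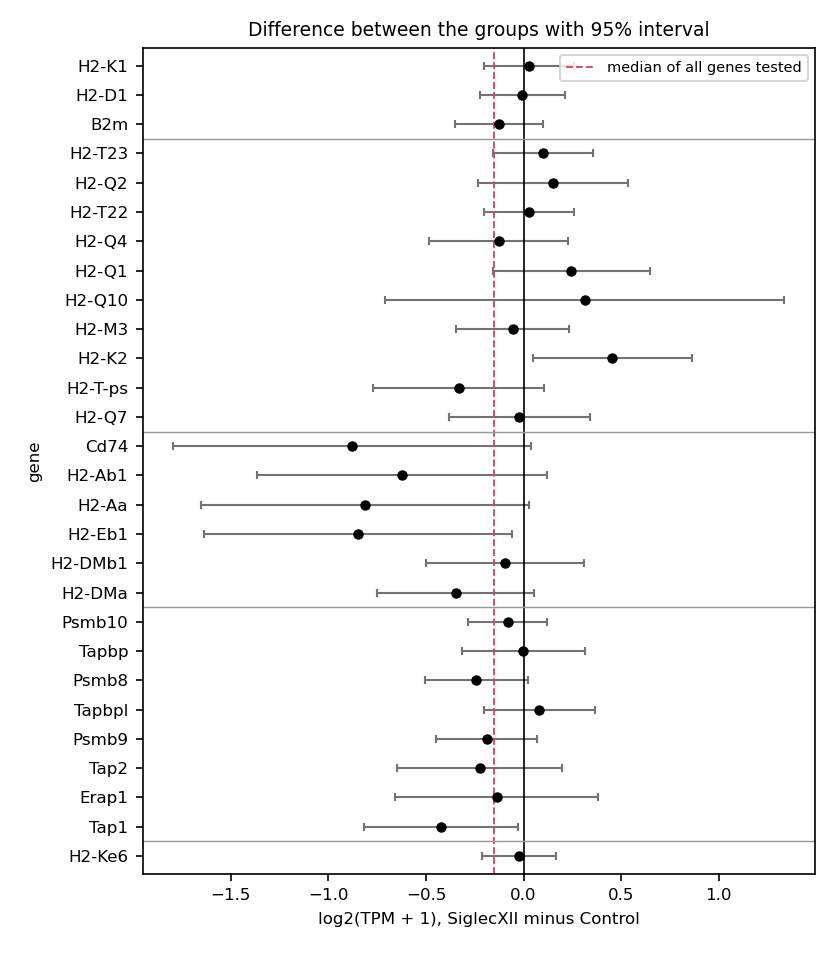
Log2 difference of each of the 28 tested genes, SiglecXII minus Control on the log2(TPM + 1) scale, as points with the 95% interval from limma, and the median of all genes tested (-0.152) as a dashed line. The class II genes Cd74, H2-Eb1, H2-Aa and H2-Ab1 have the lowest points and, with H2-Q10, the widest intervals, while the class I genes lie near 0.

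The classical class I heavy chains were the most abundant members, and their levels were alike in both groups. H2-K1 (ENSMUSG00000061232; chromosome 17, 33996017 to 34000347 on GRCm38) was at a TPM of 640.2, 784, 748 and 796 in Control 1 to 4 and 698, 841, 701 and 783 in SiglecXII 1 to 4. The groups overlapped throughout, with the lowest value in Control 1 and the highest in SiglecXII 2. H2-K1 was 9.53 ± 0.14 log2(TPM + 1) in Control samples and 9.56 ± 0.13 in SiglecXII samples (SD, n = 4 each). The difference was 0.03 (standard error 0.102) and its 95% interval ran from -0.20 to 0.26 (limma, adjusted p = 0.905), and it turned to -0.04 without Control 1. H2-D1, the other classical heavy chain, was at a TPM of 428, 530.4, 524 and 523 in Control 1 to 4 and 514, 537, 481 and 460.1 in SiglecXII 1 to 4. Control 1 was again the lowest sample, and the remaining 7 samples lay within a narrow band. The difference of H2-D1 was -0.0068 (standard error 0.097, 95% interval -0.23 to 0.21, limma adjusted p = 0.975), and it lay above 0 after median centring (0.21) and in 9 of the 17 alternatives tried.

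B2m, the light chain that every class I molecule needs to reach the cell surface (chromosome 2, 122147686 to 122153083), was at a TPM of 350.2, 371, 318 and 362 in Control samples and 329, 368, 283 and 309 in SiglecXII samples. SiglecXII 3 was the lowest and Control 2 the highest, and the other samples of both groups were interleaved. Its difference was -0.12 (standard error 0.099, 95% interval -0.35 to 0.10, limma adjusted p = 0.573), close to the median gene, and 0.09 after median centring. Summed over the 3 genes, class I was at 1594 ± 125 TPM in Control and 1576 ± 120 TPM in SiglecXII samples (SD, n = 4 each). The median log2 difference of the 3 genes was -0.00685, against -0.152 for all genes. From the lowest to the highest of the 8 samples their levels differed by 1.25- to 1.31-fold. H2-K1 stood at 1.36 to 1.70 times the TPM of H2-D1 in every sample. The H2 haplotype of the mice is not given in the sources used here, and H2 genes are highly polymorphic, so their levels and ratios rest on how well the reads match the reference haplotype. Both heavy chains share sequence with relatives: 22.8% of the 31-base windows of H2-K1 transcripts and 26.7% of those of H2-D1 also occur in transcripts of other genes, most often in each other or in H2-Q genes, and kallisto divides such reads by estimate.

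Class Ib genes spanned a wide range of levels and, as a class, did not move in one direction. Of the 30 genes, 10 were tested, 17 were under a TPM of 1 in every sample and 7 of these 17, from the H2-M1, H2-M9 and H2-M10 groups, were listed at 0 throughout. Of the 10 tested, 6 lay above 0 and 4 below, 9 of 10 lay above the median gene, and their median log2 difference was 0.0635. Summed over the class, the level was 410.6 ± 41.1 TPM in Control and 438.4 ± 47.3 TPM in SiglecXII samples (SD, n = 4 each), a difference within the spread of either group.

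H2-T23, which encodes Qa-1, was the highest class Ib gene, at a TPM of 185, 199, 157 and 181 in Control samples and 174, 195, 178 and 227 in SiglecXII samples. The highest value was that of SiglecXII 4, and the other SiglecXII samples lay within the range of the Control samples. Its difference was 0.10 (standard error 0.112, 95% interval -0.15 to 0.35, limma adjusted p = 0.673). H2-Q2, of the Qa group, was at a TPM of 82.7, 123, 112 and 128 in Control samples and 113, 141, 98.0 and 142 in SiglecXII samples, lowest in Control 1 and highest in SiglecXII 2 and 4. Its difference of 0.15 (standard error 0.170, limma adjusted p = 0.675) fell to 0.01 without Control 1. H2-T22, a ligand of a subset of gamma-delta T cell receptors, was at a TPM of 51.9, 59.9, 46.8 and 54.4 in Control samples and 50.6, 51.8, 55.5 and 58.8 in SiglecXII samples. The groups were fully interleaved, the difference was 0.03 (standard error 0.101, limma adjusted p = 0.900), and 51.0% of its 31-base windows occur in other transcripts, 47.2% in H2-T10.

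H2-K2 was the only member higher in SiglecXII samples at an unadjusted p of 0.05 or less. It is annotated as a transcribed unprocessed pseudogene beside H2-K1 (chromosome 17, 33974659 to 33978827), and encodes no class I molecule by that annotation. Its TPM was 2.23, 2.57, 2.32 and 2.08 in Control samples and 2.52, 3.45, 3.29 and 5.22 in SiglecXII samples. The Control samples were tightly grouped, SiglecXII 1 lay among them just under Control 2, and SiglecXII 4 was the highest. The difference was 0.46 (standard error 0.180, 95% interval 0.05 to 0.86, limma unadjusted p = 0.0319, adjusted p = 0.515). Without SiglecXII 3 and 4 it was 0.26 (limma, unadjusted p = 0.131, adjusted p = 0.99). Of its windows 16.6% occur in other transcripts, 8.21% in H2-D1.

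H2-Q10, which encodes a secreted class I molecule made chiefly by liver, was singled out after its values were seen. It was at a TPM of 1.40, 8.25, 7.96 and 8.11 in Control samples and 9.15, 6.68, 9.82 and 4.12 in SiglecXII samples. The 3 other Control samples agreed closely with each other, and Control 1 was several-fold below them, so the highest and the lowest of all samples differed by 7.00-fold (2.39-fold without Control 1). The difference of 0.31 had a standard error of 0.452 and a 95% interval of -0.71 to 1.34 (limma adjusted p = 0.739), the widest interval of the class. Without Control 1 it turned to -0.17 (limma, adjusted p = 0.692), and with array weights, which give less weight to samples that vary more, to -0.05. Of its windows 30.3% occur in other transcripts, chiefly in H2-Q7 (21.9%), and H2-Q7 itself ranged from 1.65 to 3.08 TPM with a Control 1 value of 2.04 inside that range. The remaining tested class Ib genes, H2-Q1, H2-Q4, H2-Q7, H2-M3 and H2-T-ps, differed by -0.33 to 0.24, none with an unadjusted p of 0.05 or less. H2-M3, which presents formylated peptides of bacteria, was among the steadiest, at a TPM of 5.03 to 6.88 over all samples.

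**Figure D3:**
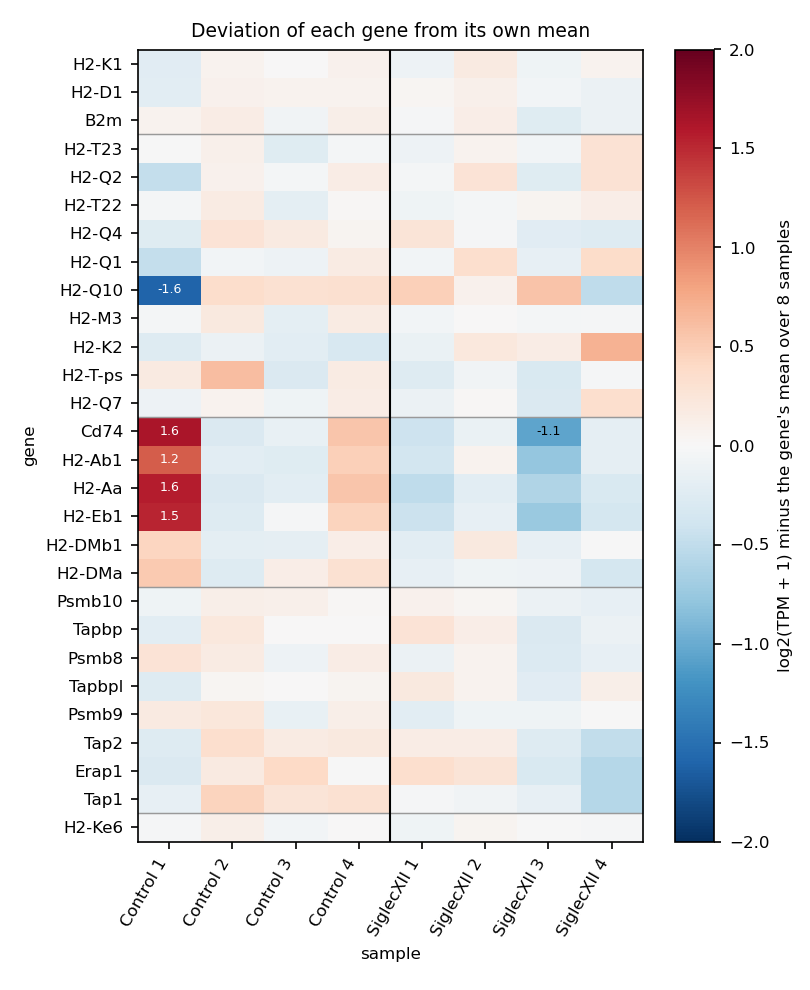
Heat map of the 28 tested genes (rows, by class) in the 8 samples (columns), coloured by log2(TPM + 1) minus the gene's mean over the samples, with deviations of at least 1 printed. Cd74, H2-Aa, H2-Eb1 and H2-Ab1 are high together in Control 1 (up to 1.63) and somewhat high in Control 4, H2-Q10 is low in Control 1 (-1.6), and class I and loading genes are pale throughout.

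The class II genes Cd74, H2-Eb1, H2-Aa and H2-Ab1 had the largest differences of the 28 members on the deposited scale, and only H2-Q10 had a larger standard error than they did. Of the 14 genes, 6 were tested, and all 6 lay below 0, 5 of them below the median gene, with a median log2 difference of -0.717 against -0.152 for all genes. None passed the adjusted limit (smallest adjusted p = 0.515, limma) and 1, H2-Eb1, passed the unadjusted limit. In bulk tissue, fewer cells of a type and less RNA per cell cannot be told apart.

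Cd74, the invariant chain, was the highest class II gene, at a TPM of 81.3, 20.8, 23.0 and 38.2 in Control 1 to 4 and 19.0, 23.4, 11.8 and 22.6 in SiglecXII 1 to 4. Control 1 was the highest by a wide margin and Control 4 the next, whereas Control 2 and 3 lay within the range of the SiglecXII samples. It was 5.17 ± 0.88 log2(TPM + 1) in Control and 4.29 ± 0.43 in SiglecXII samples (SD, n = 4 each). The difference was -0.88 (standard error 0.405, 95% interval -1.80 to 0.04, limma adjusted p = 0.515), and without Control 1 it was -0.48 (limma, adjusted p = 0.445).

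The chains of the class II molecules had the same order of samples at their upper end. H2-Aa, the alpha chain of H2-A, was at a TPM of 40.4, 10.4, 11.1 and 19.5 in Control samples and 8.83, 11.1, 8.23 and 10.3 in SiglecXII samples, a difference of -0.81 (standard error 0.371, 95% interval -1.65 to 0.03, limma adjusted p = 0.515). H2-Ab1, its beta chain, was at a TPM of 44.7, 16.1, 15.6 and 26.5 in Control samples and 14.3, 19.7, 10.5 and 16.4 in SiglecXII samples, a difference of -0.62 (standard error 0.329, 95% interval -1.37 to 0.12, limma adjusted p = 0.515). In both chains Control 1 was highest, Control 4 next, and the remaining 6 samples were mixed. H2-Eb1, the beta chain of H2-E, was at a TPM of 33.5, 9.08, 10.8 and 15.3 in Control samples and 7.92, 9.70, 6.17 and 8.35 in SiglecXII samples. Only SiglecXII 2 exceeded any Control sample, namely Control 2. Its difference was -0.85 (standard error 0.349, 95% interval -1.64 to -0.06, limma unadjusted p = 0.0382, adjusted p = 0.515). Without Control 1 the differences were -0.42 in H2-Aa, -0.32 in H2-Ab1 and -0.48 in H2-Eb1 (limma, adjusted p = 0.445, 0.484 and 0.445), so the direction stayed and the size of each was cut by more than 1.5 times. With array weights they were -0.43 in H2-Aa, -0.16 in H2-Ab1, -0.41 in H2-Eb1 and -0.40 in Cd74 (limma, adjusted p = 0.46, 0.783, 0.432 and 0.528). H2-Eb1 was then no longer past the unadjusted limit (limma, unadjusted p = 0.0903), nor was it after median centring, where its difference was -0.63 (limma, unadjusted p = 0.13, adjusted p = 0.497). H2-Ea-ps, the row for the alpha chain of H2-E, was listed at 0 in every sample; it is annotated as a polymorphic pseudogene, and this value too rests on the reference haplotype.

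The proportion between the chains varied over the samples, though less than their levels did. H2-Aa was at 0.564 to 0.904 times the TPM of H2-Ab1, and H2-Eb1 at 0.492 to 0.748 times. Both ratios were highest in Control 1. Their means were 0.750 ± 0.11 and 0.646 ± 0.09 in Control, and 0.648 ± 0.095 and 0.536 ± 0.044 in SiglecXII samples (SD, n = 4 each). From the lowest to the highest sample H2-Ab1 differed by 4.26-fold, H2-Aa by 4.91-fold, H2-Eb1 by 5.42-fold and Cd74 by 6.87-fold, and without Control 1 by 2.53-, 2.37-, 2.48- and 3.23-fold. The peptide exchange factors varied less. H2-DMa was at a TPM of 3.49, 1.64, 2.42 and 2.88 in Control samples and 1.81, 1.96, 1.93 and 1.46 in SiglecXII samples, a difference of -0.35 (standard error 0.178, 95% interval -0.75 to 0.06, limma adjusted p = 0.515). Of the 31-base windows of H2-DMa, 0.0% occur in other transcripts read in the same direction. Genes on the other strand overlap it, Brd2 among them. That strand was not compared, so the reads of H2-DMa may include some of theirs. H2-DMb1 differed by -0.09 (standard error 0.179, limma adjusted p = 0.801), by 0.12 after median centring and by 0.03 without Control 1, and 31.4% of its windows are shared with H2-DMb2.

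Ciita, the class II transactivator, was below the filter, at a TPM of 0.337, 0.238, 0.193 and 0.228 in Control samples and 0.288, 0.124, 0.0931 and 0.0677 in SiglecXII samples. These levels are too low for a test here, and the groups overlapped through SiglecXII 1. The other class II genes below the filter were also highest in Control 1 where they were found: H2-Eb2 was at 0.509 TPM there and at most 0.0348 TPM in the other samples. The loss of Control 1 from the class thus moved its median log2 difference from -0.717 to -0.373, and the median was -0.582 without SiglecXII 3 and 4 and -0.505 after median centring. It was nearest to 0 with array weights (-0.302) and with no filter on low values (-0.308, over 11 genes).

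Summed over the 14 genes, class II was at 111.5 ± 69.8 TPM in Control and 57.55 ± 11.9 TPM in SiglecXII samples (SD, n = 4 each). By sample the sum was 211.6, 61.3, 66.0 and 107.2 TPM in Control 1 to 4 and 55.3, 70.1, 42.1 and 62.6 TPM in SiglecXII 1 to 4. Among the cells named above as makers of class II, the marker sums of B cells and of macrophages and monocytes were also highest in Control 1, but not that of dendritic cells. Plasma cells are not among those makers. The sum of their 5 markers was highest in Control 1 too (180.2 TPM). Most of it was Xbp1 (137.9 TPM), which was itself highest in SiglecXII 2 (148.8 TPM). The 8 B cell markers summed to 7.51 TPM in Control 1 and to 0.906 to 2.11 TPM in the other 7 samples, and 0 of 8 reached the filter. Of the 8, Cd22 was highest in SiglecXII 3 and Cr2 in SiglecXII 1, and the others were highest in Control 1. Igha, the constant region of IgA made by plasma cells, was at 29.7, 0.640, 9.38 and 12.7 TPM in Control samples and at 0.401 to 1.32 TPM in SiglecXII samples (log2 difference -2.19, limma unadjusted p = 0.0173, adjusted p = 0.515), and it was 1 of 3 plasma cell markers tested, the only one past the unadjusted limit. The 9 macrophage and monocyte markers summed to 96.8, 82.2, 64.02 and 70.8 TPM in Control 1 to 4 and to 52.0 to 66.0 TPM in SiglecXII samples. Cd14 was the highest of them in every sample and peaked in Control 2 (61.4 TPM, against 39.8 TPM in Control 1). Csf1r, Cd68, C1qa, C1qb, C1qc and Lyz2 were highest in Control 1. Mrc1 was lowest there (0.460 TPM), and Adgre1 was highest in SiglecXII 3 (0.400 TPM). Of these 9 markers 6 were tested, and all 6 lay below 0 with a median of -0.531 (5 of 6 below 0 after median centring). C1qb and C1qc passed the unadjusted limit (limma, unadjusted p = 0.0301 and 0.00906, adjusted p = 0.515 for both). Of the 9 dendritic cell markers 8 were under 1 TPM in every sample, and Itgax was the highest of them. Their sum was 1.47, 2.10, 0.657 and 1.12 TPM in Control 1 to 4, highest in Control 2 where the class II sum was the lowest of the Control samples, and 0.557 to 0.660 TPM in SiglecXII samples. The 8 T cell markers summed to 3.08 to 4.26 TPM in Control and 3.06 to 3.60 TPM in SiglecXII samples, with 1 tested and 0 past the limit. The part of these cells in the class II values was not tested.

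**Figure D4:**
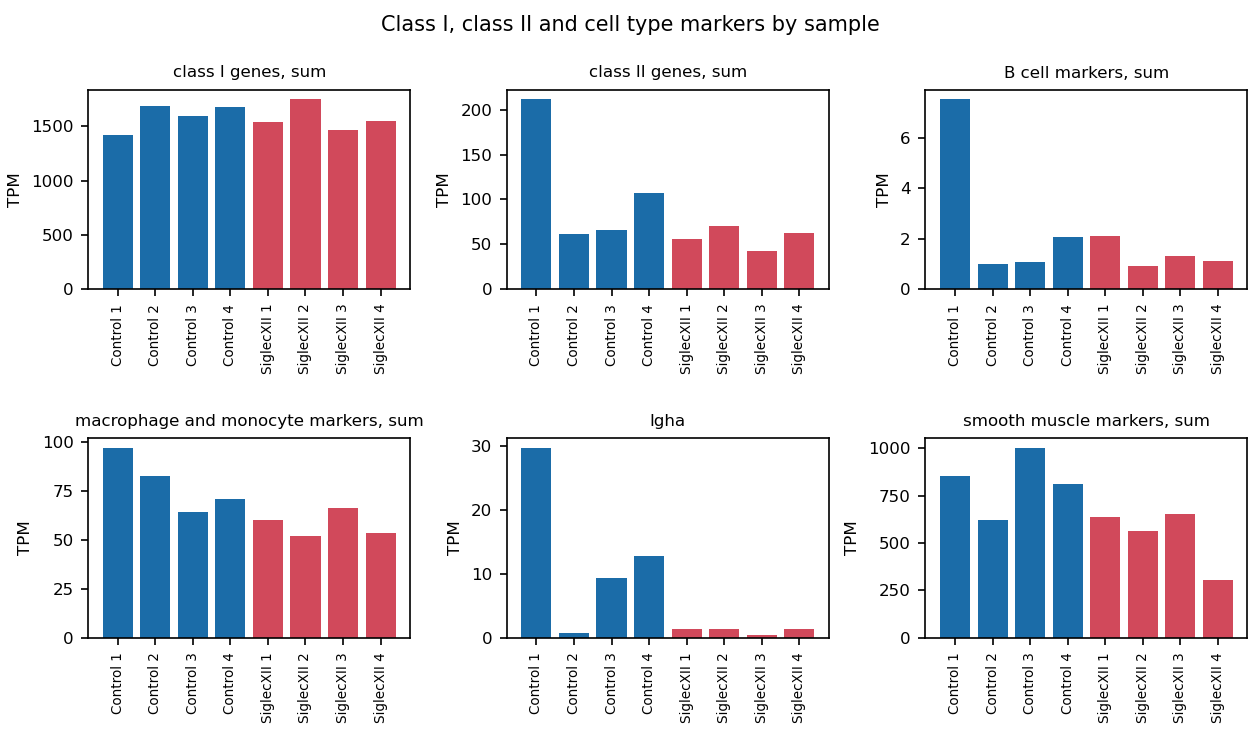
Bars from 0 give the TPM in each of the 8 samples (Control blue, SiglecXII red) for the sum of the class I genes, the sum of the class II genes, the summed B cell, macrophage and monocyte, and smooth muscle markers, and Igha. Class I is level over the samples, whereas class II (211.6 TPM), the B cell markers (7.51 TPM) and Igha (29.7 TPM) are all highest in Control 1.

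Markers of colon epithelium were abundant in every sample. All 10 were tested, 0 passed the unadjusted limit, and their sum was 8641 to 11770 TPM in Control and 9700 to 12060 TPM in SiglecXII samples, lowest in Control 1. The 6 smooth muscle markers summed to 622.6 to 1003 TPM in Control and to 303.3 to 650.7 TPM in SiglecXII samples. SiglecXII 4 was the lowest sample in each of the 6. All 6 lay below 0, with a median of -0.687 (-0.474 after median centring). Myh11, Des and Cnn1 passed the unadjusted limit (limma, adjusted p = 0.515 for each), and 7.67% of all genes passed it in that direction. Whether the share of muscle wall in the samples bears on the levels of any member was not tested.

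The genes that make and load class I peptides lay mostly just below 0, close to the median gene. Of the 8 tested, 1 lay above 0 and 7 below, 4 lay above and 4 below the median gene, and the median log2 difference was -0.163 against -0.152 for all genes. Tap1 (chromosome 17, 34187553 to 34197225) was the member with the largest difference in this group. Its TPM was 9.30, 14.6, 12.8 and 13.3 in Control samples and 10.3, 9.97, 9.23 and 6.75 in SiglecXII samples. Control 2, 3 and 4 stood above every SiglecXII sample, Control 1 lay among the SiglecXII samples, and SiglecXII 4 was the lowest. Tap1 was 3.74 ± 0.26 log2(TPM + 1) in Control and 3.31 ± 0.25 in SiglecXII samples (SD, n = 4 each). The difference was -0.42 (standard error 0.175, 95% interval -0.82 to -0.03, limma unadjusted p = 0.0391, adjusted p = 0.515). The difference was -0.55 without Control 1 (limma, unadjusted p = 0.00925, adjusted p = 0.445) and -0.26 without SiglecXII 3 and 4 (limma, unadjusted p = 0.19, adjusted p = 0.99). It was -0.21 after median centring and after quantile normalization (limma, unadjusted p = 0.0903 and 0.0964, adjusted p = 0.479 and 0.575), no longer past the unadjusted limit.

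Tap2, the other subunit of the transporter, was at a TPM of 14.0, 21.6, 19.0 and 19.5 in Control samples and 18.7, 18.7, 14.0 and 11.8 in SiglecXII samples. Here Control 1 and SiglecXII 3 and 4 were the low samples. The difference was -0.23 (standard error 0.186, 95% interval -0.65 to 0.20, limma adjusted p = 0.584), and it was 0.03 without SiglecXII 3 and 4. Tap2 stood at 1.47 to 1.5 times the TPM of Tap1 in the 4 Control samples and at 1.82, 1.88, 1.52 and 1.74 times in SiglecXII 1 to 4. This was 1 of 10 ratios computed after the levels were known, chosen for remark after the values were seen, and it was given no test. The Tap1 gene overlaps Psmb9 on the opposite strand, and both are transcribed outward from this shared stretch.

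Tapbp was at a TPM of 86.6, 116, 101 and 101 in Control samples and 122, 109.9, 82.4 and 93.1 in SiglecXII samples, and the group means were nearly equal. The difference was -0.00074 (standard error 0.140, 95% interval -0.32 to 0.32, limma adjusted p = 0.998), so its sign carries no weight, and it was 0.21 after median centring. Tapbpl differed by 0.08 and Erap1 by -0.14 (standard errors 0.125 and 0.230, limma adjusted p = 0.756 and 0.775). The difference of Erap1 was 0.08 after median centring and 0.22 without SiglecXII 3 and 4. Erap1 varied more, from 10.6 TPM in SiglecXII 4 to 21.5 TPM in Control 3.

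The immunoproteasome subunits had lower mean levels in SiglecXII samples, but none passed either limit and the groups overlapped. Psmb8 was at a TPM of 46.2, 42.7, 35.3 and 42.1 in Control samples and 34.8, 40.1, 31.2 and 33.7 in SiglecXII samples, a difference of -0.24 (standard error 0.117, 95% interval -0.51 to 0.02, limma adjusted p = 0.515). Control 3 lay among the SiglecXII samples, and the other 3 Control samples lay above them all. Psmb9 was at a TPM of 22.1, 22.9, 17.5 and 21.2 in Control samples and 16.7, 18.4, 18.3 and 19.3 in SiglecXII samples, a difference of -0.19 (standard error 0.114, limma adjusted p = 0.516), with Control 3 again low. Psmb10 was at a TPM of 106, 121, 119.5 and 114 in Control samples and 118, 114, 103 and 100.2 in SiglecXII samples, a difference of -0.08 (standard error 0.0894, limma adjusted p = 0.668). After median centring Psmb9 was at 0.02 and Psmb10 at 0.13, whereas Psmb8 stayed below 0. The 3 subunits summed to 177.6 ± 6.42 TPM in Control and 162.0 ± 10.7 TPM in SiglecXII samples (SD, n = 4 each). The lowest sums were those of SiglecXII 3 and 4 (152.5 and 153.2 TPM), and SiglecXII 2 (172.7 TPM) lay above Control 3 (172.3 TPM).

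Each immunosubunit can be set beside the constitutive subunit that it replaces. Psmb8 was at 0.165 to 0.240 times the TPM of Psmb5, Psmb9 at 0.0723 to 0.0999 times that of Psmb6, and Psmb10 at 0.881 to 1.03 times that of Psmb7. The group means of the first ratio were 0.225 ± 0.019 and 0.196 ± 0.023, of the second 0.0897 ± 0.0077 and 0.0790 ± 0.0091, and of the third 0.965 ± 0.067 and 0.943 ± 0.046 in Control and SiglecXII samples (SD, n = 4 each). Of the 8 genes of the constitutive proteasome and its activators, 8 were tested, 0 passed the unadjusted limit and all 8 lay below 0, with a median of -0.0524 against -0.152 for all genes. After median centring 6 of the 8 lay above 0 and their median was 0.16. Nlrc5, the class I transactivator, was below the filter, at a TPM of 0.165, 0.194, 0.124 and 0.318 in Control samples and 0.187, 0.168, 0.0466 and 0.0814 in SiglecXII samples. The lowest values were those of SiglecXII 3 and 4, and SiglecXII 1 and 2 lay among the Control samples.

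In the wider pathway no gene passed the adjusted limit. Of the 5 chaperones and oxidoreductases of peptide loading, 5 lay above 0 (median 0.235) and 1 passed the unadjusted limit. This was Hspa5, the BiP chaperone of the endoplasmic reticulum, at 174.7 to 213.6 TPM in Control and 225.1 to 389.7 TPM in SiglecXII samples without overlap (log2 difference 0.55, limma unadjusted p = 0.00739, adjusted p = 0.515). Of the 8 class II processing genes, cathepsins and Ifi30 among them, 4 lay above 0 and 4 below (7 and 1 after median centring), and 0 passed the unadjusted limit. Of 18 regulators with a row 16 were tested, of which 12 lay below 0 (5 after median centring). Rfx5, a subunit of the complex that binds the X box, was at 3.77 to 5.49 TPM in Control and 1.60 to 3.79 TPM in SiglecXII samples (log2 difference -0.57, limma unadjusted p = 0.0212, adjusted p = 0.515). Its lowest values were those of SiglecXII 3 and 4 (2.50 and 1.60 TPM), the libraries with the lowest median genes, and SiglecXII 1 lay just above Control 1. Ifngr2, a chain of the interferon-gamma receptor, was at 95.04 to 112.9 TPM in Control and 119.9 to 153.0 TPM in SiglecXII samples without overlap (0.26, limma unadjusted p = 0.0388, adjusted p = 0.515).

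Among the 14 interferon-gamma response genes, of which 3 are also in the list of regulators, 6 were tested and all 6 lay below 0, with a median of -0.281 against -0.152 for all genes. After median centring 4 of the 6 lay below 0. Igtp, an interferon-induced GTPase, was among the 2 past the unadjusted limit (limma, unadjusted p = 0.047, adjusted p = 0.515), and Irf1, an activator of class I promoters, differed by -0.01 (0.20 after median centring). Of the 10 class I-like genes outside the complex that had a row, 5 were tested and 0 passed the unadjusted limit. Fcgrt, the neonatal Fc receptor chain, differed by 0.02 and Cd1d1, which presents lipids, by -0.27. Mr1, which presents metabolites of vitamin B2 synthesis, was not tested. It was at 0.520 to 2.63 TPM in Control samples, highest in Control 1, and at 0.244 to 0.772 TPM in SiglecXII samples.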

How the data were processed

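RNA sequencing of distal colon from 4 Control and 4 SiglecXII samples was used. The authors deposited log2(TPM + 1) values per Ensembl gene, made with kallisto 0.45.0 and GRCm38 according to the submitters' processing notes, whereas the methods name another kallisto version, a human reference, and counts tested with DESeq2, which were not used here. The labels name a stranded total RNA kit and the methods a stranded mRNA kit. TPM summed to 1000000 per sample, so read depth is unknown, and an exact 0 can be a failed estimate. No 2 samples were identical (highest correlation 0.9931).

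Groups were compared with limma 3.58.1 in R 4.3.3 (trend, Benjamini-Hochberg over 13164 genes with TPM of at least 1 in 4 samples, pseudocount 1, no adjustment between samples). Called means an adjusted p of at most 0.05. Tested on simulated data of this comparison with 13164 genes, the fit recovered 62.1% of genes changed by 1 log2 unit and 95.5% by 3. The simulation changed 200 genes and drew independent noise at each gene's own spread, without the shift of SiglecXII 3 and 4. Its shares run over all changed genes. They do not give the recovery of genes with a wide spread, such as the class II members. Tables and figures used Python 3.11.15, pandas 2.3.3 and matplotlib 3.10.9. Positions and windows of 31 bases are from GENCODE M21 on GRCm38, and promoters are RefSeq sequences. Where a symbol was repeated, the row with the highest mean was kept. The members, classes and lists were chosen with earlier results of these data known. Named in full were the classical class I and class II chains, Cd74, H2-DMa, the transporter, tapasin, immunoproteasome and both transactivators, every member with an unadjusted p of at most 0.05 or without overlap, and the 3 highest class Ib genes. H2-Q10 and the ratio of Tap2 to Tap1 were added after seeing values. The alternatives changed the TPM filter (5, or no filter), the pseudocount (0.1), the scaling (quantile normalization, median centring), the weights (array weights) or the handling of repeated symbols (TPM summed), added the replicate number as a block, or left out each sample in turn or SiglecXII 3 and 4 together. Single values of 2 genes of the marker and pathway lists are not reported here.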

Additional observations from a re-analysis of the deposited data

Results flagged for a closer look

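In 3 of 60 groups of 4 samples examined (28 tested members, Nlrc5 and Ciita, in each group of mice), a sample lay farther from the others than Dixon's 95% limit allows, and chance gives about 3. All 3 concerned a low value in Control 1, and the ratios given here were taken on the log2(TPM + 1) values. H2-Q10 had the largest ratio of the gap to the range, 0.976, with 1.40 TPM in Control 1 against 7.96 to 8.25 TPM in the other Control samples. H2-D1 followed with a ratio of 0.932 (428 TPM against 523 to 530.4 TPM). Tapbpl, the tapasin relative, had a ratio of 0.853 (21.6 TPM against 26.3 to 27.2 TPM).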

How the results depend on the processing

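The count of members past an adjusted p of 0.05 was 0 under all 17 alternatives, the smallest adjusted p of any member being 0.193 (Tap1, limma array weights). Of 18 named members with a test, 10 kept their sign throughout and 8 turned under at least 1 alternative; the cause was not tested. Median centring moved the class medians to 0.206 (class I), 0.276 (class Ib) and 0.0496 (loading and proteasome). It left 1 member (Tapbpl) without overlap, against 6.93% of all genes. It turned H2-D1 to 0.206, B2m to 0.0883, Tapbp to 0.212, Psmb9 to 0.0235 and Psmb10 to 0.132. Quantile normalization gave -0.00394 for loading and proteasome, and 2 members without overlap (H2-K2 and Tapbpl), against 5.2% of all genes. It turned H2-D1 to 0.0548, Tapbp to 0.0945 and Psmb10 to 0.0084. Under both scalings H2-K2 and H2-Q1 passed the unadjusted limit and Tap1 and H2-Eb1 did not, and median centring also brought Tapbp and Tapbpl past it. Of all genes 8.45% passed it under quantile normalization and 10.8% under median centring. Array weights gave 18 genes past the adjusted and 1851 past the unadjusted limit, against 5 and 1167, and turned H2-D1 to 0.0304, B2m to 0.0196, Tapbp to 0.069 and H2-T22 to -0.0464. A filter at 5 TPM gave 3 and 699 genes, and no filter 3 and 2043.

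Without SiglecXII 3 and 4, 0 members and 351 genes (2.71%) passed the unadjusted limit and 0 genes the adjusted limit (limma). In that fit 1 member (Tapbpl) did not overlap, against 12.5% of all genes, and the loading and proteasome median was 0.023. There 7 members turned, H2-D1 to 0.0729, Tap2 to 0.0299, Tapbp to 0.197, Psmb10 to 0.016, H2-T22 to -0.0495, Erap1 to 0.224 and H2-Q4 to 0.0546. With each sample left out in turn, 0 to 7 members and 483 to 2358 genes (3.7% to 18.1%) passed the unadjusted limit, and 1 to 6 genes passed the adjusted limit. In these fits 0 to 3 members did not overlap, against 6.24% to 12.5% of all genes. Over the same fits H2-K1 ranged from -0.0429 to 0.0631, H2-D1 from -0.0806 to 0.0302, Tapbp from -0.0908 to 0.0942 and H2-T22 from -0.0311 to 0.0853. Samples of the same number did not deviate together (correlations of -0.165, -0.204, 0.103 and -0.0025 for numbers 1 to 4). These values show no pairing by number, but with 4 samples per group they cannot exclude one. With the replicate block, 2 members (Cd74 and H2-Eb1) passed the unadjusted limit, against 7.18% of all genes. Tap1 and H2-K2 did not pass it (limma, unadjusted p = 0.0751 and 0.059), and 4 genes passed the adjusted one.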
